A study of Mus musculus with 6 samples.

Results

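The 34 genes described here encode the sarcomere, calcium release and energy supply proteins of skeletal muscle. They were taken by gene name from the 54532 genes of a deposited count table, and each of the 34 names matched 1 row. The table holds RNA sequencing of mouse abdominal aorta taken at day 7 after induction of an abdominal aortic aneurysm. It has 3 libraries from Olfr2 knockout mice (KO) and 3 from wild type mice (WT), with both genotypes under the same induction. Olfr2 encodes an olfactory receptor. The sources used here do not state strain, age, the kind of knockout allele, how the aneurysm was induced or how many animals stand behind each library. P-values therefore measure the spread between these libraries, which may be technical in part.

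Skeletal muscle contracts when an electrical signal at the fibre surface opens a calcium store inside the fibre. Calcium binds troponin on the actin thin filament, and myosin of the thick filament can then pull on it. Fast and slow fibres build this machine from different gene copies, such as fast and slow troponins, so transcripts can show which fibre type is present. The wall of the aorta contains smooth muscle, which uses other myosin, actin and regulatory proteins, and troponin is not part of its machinery.

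The libraries held 17248918 to 21872027 gene counts, with the highest total in KO replicate 3. Genes that mark the aortic wall were present in every library. Myh11, smooth muscle myosin, stood at 186 to 287 CPM (counts relative to the scaled library size) in KO and 82 to 107 CPM in WT. The endothelial gene Pecam1 stood at 155 to 236 CPM over the 6 libraries. In bulk tissue, fewer cells of a type and less RNA per cell cannot be told apart.

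The 34 members were high in a single library, KO replicate 3. They made up 0.188% of its counts (95% Wilson interval 0.187 to 0.19%, 41218 counts), against 0.00666% in KO replicate 1 and 0.006% in KO replicate 2. In WT replicates 1 to 3 the shares were 0.00731, 0.0057 and 0.00406%. These intervals and all limits from a count of 0 cover counting error alone. Summed over the members, KO replicate 3 reached 1918 CPM, 26.9 times the next library, which was WT replicate 1 at 71.4 CPM. Thus the other KO libraries, at 65.8 and 57.6 CPM, lay within the range of the WT libraries, 41 to 71.4 CPM. Of the 34 members, 27 had their highest CPM in KO replicate 3, and 21 exceeded there 5 times the highest other library or, where that was lower, the level of 3 counts. Of the 19 members that could be tested, 16 were highest in KO replicate 3, beside 14.9% of all tested genes. The 7 members that were not highest in KO replicate 3 were the slow fibre genes Myh7, Myl2, Myl3, Tnnt1, Tnni1 and Tnnc1, and the fast troponin C gene Tnnc2.

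**Figure D1:**
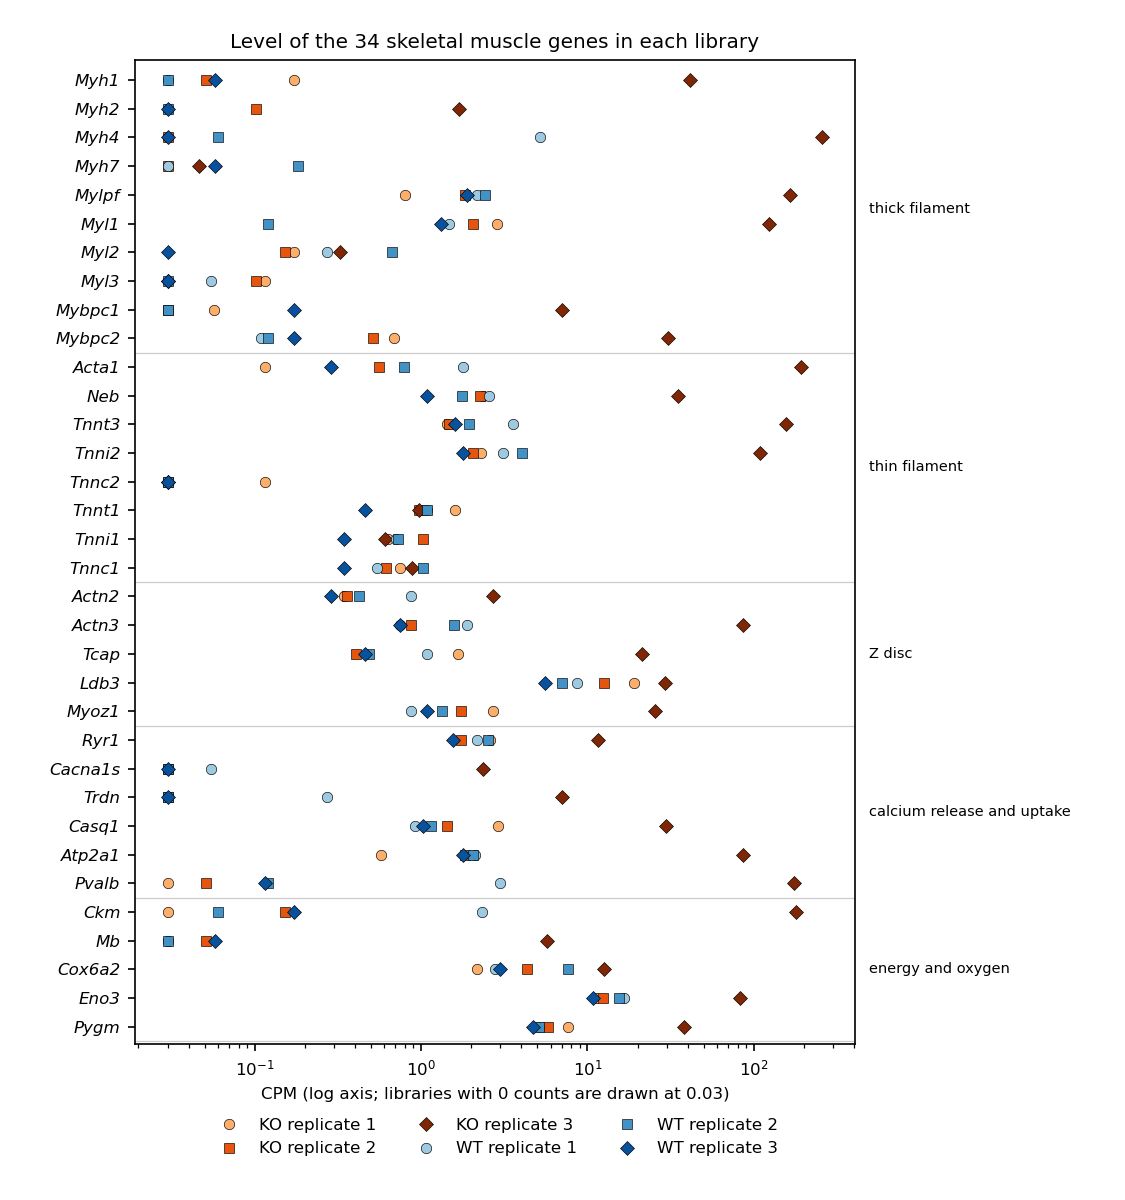
CPM of each of the 34 members in the 6 libraries on a log axis, grouped by role, with libraries without a count drawn at the left. KO replicate 3 lies to the right of the other 5 libraries for 27 members, for example at 258 CPM for Myh4, while Myh7, Myl2, Myl3, Tnnt1, Tnni1 and Tnnc1 show no such gap.

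Promoter sequence was examined because the fast members were high together in KO replicate 3 while most slow forms were not. RefSeq promoters on GRCm38.p6 were listed for 26 of the 34 members, in 33 windows of 250 bases before the start. None was listed for Tnnt3, Tnni2, Neb, Actn3, Tcap, Myoz1, Trdn or Cox6a2, all highest in KO replicate 3. The windows shown, which do not represent all members, are those of Myh4, Acta1 and Atp2a1, high in KO replicate 3, and of slow Tnnt1, which was not. Each is written 5′ to 3′ on the gene's strand, with capitals for CANNTG (the E-box, which myogenic factors bind), the MEF2 site, the CArG box and TATAAA, read on both strands.
Myh4, chr11:67237562-67237811, plus strand: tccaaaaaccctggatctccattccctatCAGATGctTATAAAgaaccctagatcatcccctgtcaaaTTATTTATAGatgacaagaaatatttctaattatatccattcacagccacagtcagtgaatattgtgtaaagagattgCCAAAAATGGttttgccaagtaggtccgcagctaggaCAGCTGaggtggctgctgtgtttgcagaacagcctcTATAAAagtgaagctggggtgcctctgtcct
Acta1, chr8:123894776-123895025, minus strand: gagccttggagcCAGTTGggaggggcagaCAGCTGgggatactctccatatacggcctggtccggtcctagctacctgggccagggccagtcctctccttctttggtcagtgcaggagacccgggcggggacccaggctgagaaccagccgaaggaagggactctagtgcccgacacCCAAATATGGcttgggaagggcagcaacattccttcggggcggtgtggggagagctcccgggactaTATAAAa
Atp2a1, chr7:126463074-126463323, minus strand: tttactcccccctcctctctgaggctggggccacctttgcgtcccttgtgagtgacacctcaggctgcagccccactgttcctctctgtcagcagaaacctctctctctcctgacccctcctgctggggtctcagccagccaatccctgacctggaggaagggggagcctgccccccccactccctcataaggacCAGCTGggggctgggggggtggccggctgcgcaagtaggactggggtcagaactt
Tnnt1, chr7:4515976-4516225, minus strand: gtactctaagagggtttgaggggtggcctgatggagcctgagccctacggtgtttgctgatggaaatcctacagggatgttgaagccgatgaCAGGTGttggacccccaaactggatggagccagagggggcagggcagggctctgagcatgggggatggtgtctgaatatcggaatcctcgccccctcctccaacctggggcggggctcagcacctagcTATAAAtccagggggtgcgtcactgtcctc

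The E-box form CAGCTG, a special case of CANNTG, was in the windows of Myh4 from position -67, Acta1 from -221 and Atp2a1 from -55, counted back from the start. It was in 15 of the 33 member windows (45.5%) and in 13% of all 32841 windows of the same length. CANNTG itself was in 81.8% and 66.2%. A CArG box was in 15.2% of member windows and 1.47% of all, including Myh4 from -104 and Acta1 from -73. A MEF2 site was in 9.09% and 2.92%, with that of Myh4 from -182 overlapping a TATAAA match on the other strand, and TATAAA in 18.2% and 12.4%. The windows of slow Tnni1 and a window of slow Myl2 held CAGCTG too, while those of slow Myh7, Myl3, Tnnt1 and Tnnc1 did not. It was also absent from the windows of Myh1, Myh2, Mybpc2, Actn2, Ldb3, Ryr1, Pvalb and Eno3, which were highest in KO replicate 3. The window of fast Tnnc2, which was not highest there, lacked it as well. Fast and slow windows were not compared by a test. Some genes had several windows, so windows are not independent. A match describes letters and not binding.

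The thick filament showed the widest range. Myh4, the myosin heavy chain of the fastest glycolytic fibres (ENSMUSG00000057003, chromosome 11, 67238029 to 67260446, plus strand, GRCm38), had 5550 counts in KO replicate 3. It had 0 counts in KO replicates 1 and 2, 96 in WT replicate 1, 1 in WT replicate 2 and 0 in WT replicate 3. KO replicate 3 at 258 CPM was 49.6 times WT replicate 1 at 5.21 CPM, and the remaining libraries were at or under 0.0605 CPM. Myh1, a heavy chain of fast fibres, had 883 counts in KO replicate 3 and at most 3 in any other library. Myh2, the heavy chain of fast oxidative fibres, had 36 counts there, 2 in KO replicate 2 and 0 elsewhere. Myh7, the slow heavy chain, had 1 count in KO replicate 3 and at most 3 elsewhere, so no difference was detectable at this depth. Of the counts of these 4 heavy chains in KO replicate 3, 85.8% fell on Myh4 (95% Wilson interval 84.9 to 86.6%, 6470 counts). In WT replicate 1 it was 100% of 96 counts (interval 96.2 to 100%).

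The light chains repeated the contrast between fast and slow forms. Mylpf, the fast regulatory light chain, stood at 165 CPM in KO replicate 3, at 0.802 and 1.84 CPM in KO replicates 1 and 2, and at 2.17, 2.42 and 1.90 CPM in WT replicates 1 to 3. Myl1, the fast essential light chain, stood at 123 CPM in KO replicate 3, at 2.86 and 2.04 CPM in the other KO libraries, and at 1.47, 0.121 and 1.32 CPM in WT. For Myl1 the groups did not overlap, whereas for Mylpf KO replicates 1 and 2 lay below the WT libraries. Their slow counterparts Myl2 and Myl3 had at most 11 and 2 counts in any library. Myosin binding protein C trims how myosin heads engage actin. Its fast form Mybpc2 had 654 counts in KO replicate 3, 12 and 10 in KO replicates 1 and 2, and 2, 2 and 3 in WT. Mybpc1, called the slow form although fast fibres carry it too, had 151 counts in KO replicate 3 and at most 3 elsewhere.

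Among thin filament genes, Acta1, skeletal muscle actin (ENSMUSG00000031972, chromosome 8, 123891769 to 123894751, minus strand, GRCm38), stood at 192 CPM in KO replicate 3. The other libraries had 0.115 and 0.562 CPM in KO and 1.79, 0.787 and 0.287 CPM in WT, so KO replicate 3 was 107 times the next library. Tnnt3 and Tnni2, the fast troponin T that anchors the complex and the fast troponin I that blocks contraction at rest, stood at 156 and 109 CPM there. Elsewhere Tnnt3 ranged from 1.43 to 3.58 CPM and Tnni2 from 1.78 to 4.06 CPM. Neb, the giant ruler protein of the thin filament, stood at 35.1 CPM, against 1.09 to 2.55 CPM in the other libraries.

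The slow troponins had no such gap between libraries. Tnnt1 stood at 0.977 CPM in KO replicate 3, inside the 0.46 to 1.60 CPM of the other libraries. Tnni1 stood at 0.605 CPM against 0.345 to 1.02 CPM, and Tnnc1 at 0.884 CPM against 0.345 to 1.03 CPM. Per kilobase of exon, fast Tnnt3 exceeded slow Tnnt1 by 222 times in KO replicate 3 and by 1.24 to 4.87 times in the other 5 libraries. For Tnni2 over Tnni1 the ratio was 433, against 4.81 to 13.4 elsewhere.

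Tnnc2, the fast troponin C that binds the activating calcium, went against the rest of its complex. It had 0 counts in KO replicate 3, which allows up to 0.14 CPM, 2 counts in KO replicate 1 and 0 in the other 4 libraries. Of its exon bases (ENSMUSG00000017300, chromosome 2, 164777161 to 164779967, minus strand, GRCm38), 74% overlap exons of Ube2c on the opposite strand. Ube2c itself had 478 counts in KO replicate 3 and 399 to 510 in the other libraries. How strand and shared reads were handled at counting is not stated, so the Tnnc2 count is uncertain.

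**Figure D2:**
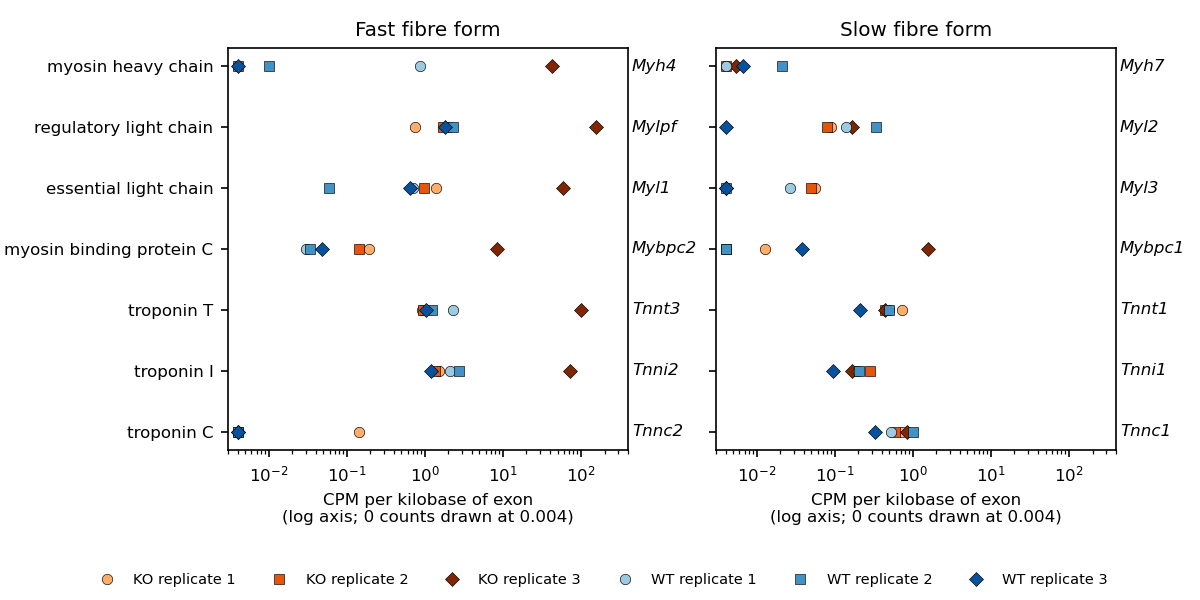
CPM per kilobase of exon, on a log axis, for 7 pairs of fast (left) and slow (right) forms in the 6 libraries, with libraries without a count drawn at the left edge. KO replicate 3 stands apart in 6 of the 7 fast forms, such as Tnnt3 at 98.6, but among the slow forms in Mybpc1 alone, at 1.55.

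Z disc genes anchor the thin filaments. Actn3, the alpha-actinin of fast fibres, stood at 86.5 CPM in KO replicate 3 and at 0.745 to 1.90 CPM in the other libraries, and Actn2, the form of all fibres, at 2.70 against 0.287 to 0.868 CPM. Tcap, which binds titin at the Z disc, stood at 21.3 against 0.409 to 1.66 CPM. Myoz1, which tethers calcineurin in fast fibres, stood at 25.5 CPM, with 2.69 and 1.74 CPM in KO replicates 1 and 2 and 0.868, 1.33 and 1.09 CPM in WT.

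Ldb3, a PDZ and LIM domain protein of the Z disc also called Cypher or ZASP, differed from this pattern. It stood at 19.1, 12.6 and 29.2 CPM in KO replicates 1 to 3 and at 8.68, 7.02 and 5.57 CPM in WT replicates 1 to 3. Every KO library lay above every WT library, and KO replicate 3 was 1.53 times the next library rather than many times. The KO mean was 20.3 ± 8.35 CPM and the WT mean 7.09 ± 1.56 CPM (SD, n = 3 each). On the log2 scale edgeR's quasi-likelihood test put the difference at 1.52 (SE 0.30), with an adjusted p of 0.121 over all genes. Without KO replicate 3 the difference stood at 1.16 (SE 0.26, adjusted p = 0.164 by the same test). DESeq2's Wald test called it, with an adjusted p of 0.000107 with all libraries, where it called 2.89% of the genes given an adjusted p, and 0.0073 without KO replicate 3, where it called 3.11% of such genes and gave 14 of the 19 members no adjusted p. An exact permutation test of 3 against 3 libraries cannot give a p under 0.1. Smooth muscle contractile genes were also higher in KO as a sum, at 1793 to 2744 CPM against 1100 to 1540 CPM in WT. All 10 listed were tested and none was at 0. Among them, 7 had every KO library above every WT library, beside 7.83% of all tested genes. The smooth muscle sum peaked in KO replicate 1 and, within WT, in replicate 2. Most of that sum was Acta2, at 1909 CPM in KO replicate 1 and 1146 CPM in WT replicate 2. Ldb3 peaked in KO replicate 3 and, within WT, in replicate 1. Of the 10 smooth muscle genes, 3 also peaked in KO replicate 3, Myh11, Smtn and Myocd, and the rest did not. The part of the smooth muscle genes in the Ldb3 difference was not tested.

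Calcium release begins with Cacna1s, the voltage sensor in the fibre membrane, which opens Ryr1, the release channel of the store. Cacna1s had 51 counts in KO replicate 3, 1 in WT replicate 1 and 0 in the other 4 libraries. Ryr1 stood at 11.6 CPM in KO replicate 3, at 2.58 and 1.74 CPM in KO replicates 1 and 2, and at 2.17, 2.54 and 1.55 CPM in WT, so the groups overlapped. Trdn encodes triadin, which holds the channel to the calcium buffer. It had 152 counts in KO replicate 3, 5 in WT replicate 1 and 0 elsewhere.

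Inside the store the calcium is held by calsequestrin, encoded by Casq1. Casq1 stood at 29.6 CPM in KO replicate 3, at 2.92 and 1.43 CPM in KO replicates 1 and 2, and at 0.922, 1.15 and 1.03 CPM in WT, again without overlap of the groups. Atp2a1, the pump that returns calcium to the store in fast fibres, stood at 86.7 CPM, with 0.573 and 1.84 CPM in the other KO libraries and 2.12, 2.06 and 1.78 CPM in WT. Pvalb, parvalbumin, which soaks up calcium in fast fibres, had 3768 counts in KO replicate 3, 55 in WT replicate 1 and at most 2 in any other library. Per kilobase it was the highest of all members in KO replicate 3, at 168 CPM per kilobase, ahead of Mylpf at 156 and Acta1 at 125, while Ryr1 stood at 0.531 and Cacna1s at 0.362.

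Energy and oxygen genes split by how far other libraries carried them. Ckm, muscle creatine kinase, had 3852 counts in KO replicate 3, 43 in WT replicate 1 and at most 3 elsewhere. Mb, myoglobin, the oxygen store of oxidative fibres, had 122 counts against at most 1. Pygm, muscle glycogen phosphorylase, stood at 38.2 CPM, with 7.68 and 5.82 CPM in KO replicates 1 and 2 and 4.71 to 5.10 CPM in WT, so its groups did not overlap. Eno3, muscle enolase, stood at 82.6 against 10.8 to 16.6 CPM, and Cox6a2, a muscle subunit of cytochrome c oxidase, at 12.6 against 2.18 to 7.69 CPM.

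WT replicate 1 was the next highest library for 12 of the 34 members, among them Myh4, Acta1, Pvalb, Ckm, Trdn and Tnnt3. Across the 34 members, log2 CPM in KO replicate 3 correlated with WT replicate 1 at r = 0.67. With KO replicates 1 and 2 it was 0.29 and 0.40, and with WT replicates 2 and 3 it was 0.34 and 0.49. The other 10 pairs of libraries had r from 0.65 to 0.96, highest for KO replicate 2 with WT replicate 3, and WT replicate 1 had 0.77 with each of the other WT libraries. These are correlations across genes within pairs of libraries; the genes are not replicates and share each library's depth.

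For the test of KO against WT, 19 of the 34 members passed the filter on low counts and 15 did not, Myh4, Pvalb and Ckm among the latter. None of the 19 passed at an adjusted p under 0.05 (edgeR's quasi-likelihood test), where 0.0123% of all 16237 tested genes passed. DESeq2 called 1 member, Ldb3, against 2.89% of the 15592 genes given an adjusted p, limma-voom called 0, and DESeq2 gave no adjusted p for 10 members, Acta1 and Mylpf among them. At an unadjusted p under 0.05 there were 13 of 19 members, each higher in KO, against 5.23% of all tested genes. That count is a description, since the members were chosen with earlier results of these libraries known. With no filter on low counts edgeR called 23 of the 34 members, against 2.18% of all genes. Of these 23, Ldb3 alone was also called as higher in KO with no filter and without KO replicate 3. Acta1 differed by 6.05 on the log2 scale (SE 2.11, adjusted p = 0.318, edgeR), with KO and WT means of 64.3 ± 111 and 0.955 ± 0.766 CPM (SD, n = 3 each). For Mylpf it was 4.70 (SE 1.67, adjusted p = 0.322, edgeR) with means of 56 ± 94.8 and 2.16 ± 0.263 CPM. In both the KO SD exceeded the KO mean.

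Without KO replicate 3 the differences changed size or direction. The median log2 fold change of the 19 tested members was 3.19 with all libraries and 0.09 without it, beside 0.006 and 0.007 for all tested genes. Of the 19, 8 then had a negative value, among them Acta1 at -1.46 (SE 0.89), Actn3 at -0.80 (SE 0.52) and Tnnt3 at -0.71 (SE 0.44), and 11 stayed positive. Members at an unadjusted p under 0.05 numbered 3, Ldb3, Casq1 at 1.06 (SE 0.44) and Myoz1 at 1.01 (SE 0.41), against 4.26% of all genes that were higher in KO at that level. With WT replicate 1 also left out, the median was 0.03 and Ldb3 alone was under 0.05, against 5.20% of all genes. After adjustment edgeR called 0 of 19 members without KO replicate 3, where it called 0.0120% of all genes, and 0 of 18 with WT replicate 1 also left out, where it called 0.0122%. With no filter on low counts and without KO replicate 3, edgeR called 4 members, against 2.90% of all genes. These were Ldb3 higher in KO and Myh4, Pvalb and Ckm lower, and for the latter 3 WT replicate 1 held 96, 55 and 43 counts and the other WT libraries at most 3.

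**Figure D3:**
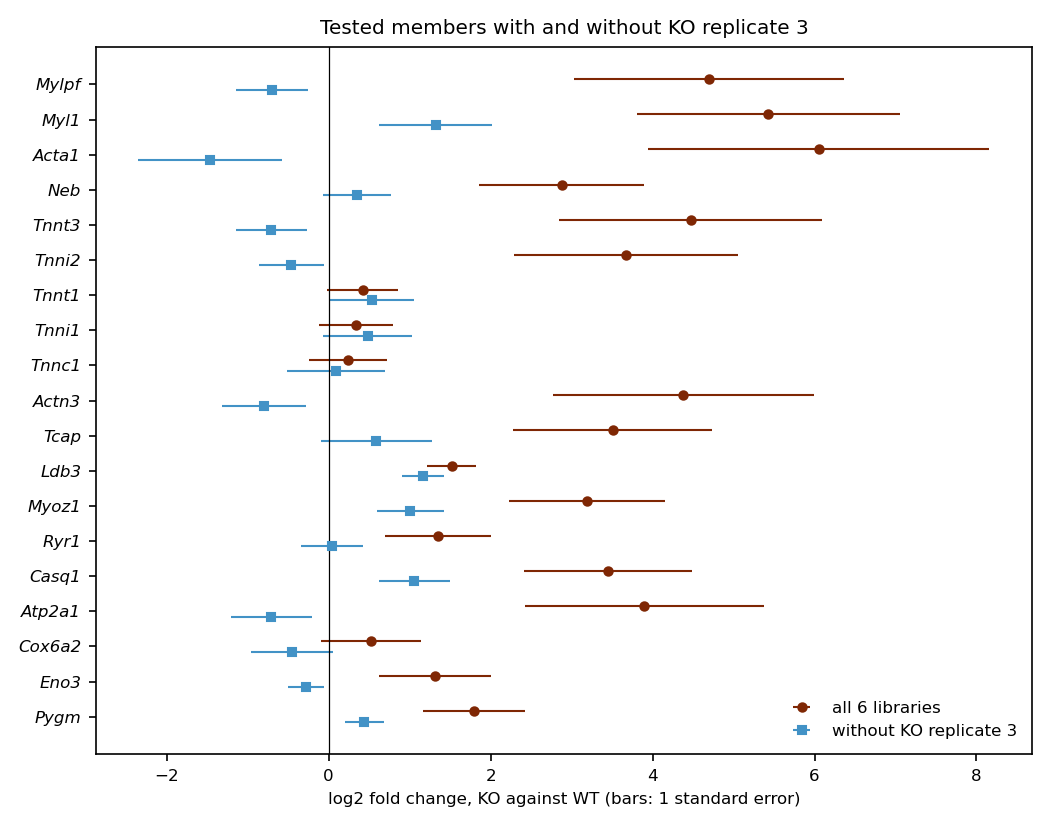
Log2 fold change of KO against WT with 1 standard error for the 19 tested members, with all 6 libraries and without KO replicate 3. Acta1 moves from 6.05 to -1.46, while Ldb3 stays at 1.52 and 1.16.

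In KO replicates 1 and 2 alone, 5 of the 19 tested members lay above all 3 WT libraries: Myl1, Ldb3, Myoz1, Casq1 and Pygm. Of all tested genes, 12.6% did so. Mylpf and Tnnt3 lay below all 3 WT libraries, and 14.0% of all tested genes did so. With KO replicate 3 included, the same 5 members had every KO library above every WT library, beside 7.83% of all tested genes. KO replicate 3 was the highest library for each of these 5, so its inclusion fixed that outcome and adds nothing to the comparison with 12.6%. In the thick filament, Myl1 had KO replicate 1 and 2 values 2.53 times the WT mean on average, and Mylpf 0.61 times. Neither was called without KO replicate 3 (adjusted p = 0.611 and 0.686, edgeR's quasi-likelihood test). The WT mean of Myl1 included WT replicate 2 at 2 counts, against 27 and 23 in WT replicates 1 and 3. The corresponding ratio was 2.10 for Casq1, 2.02 for Myoz1, 1.36 for Pygm and 2.23 for Ldb3, but 0.607 for Atp2a1 and 1.03 for Ryr1.

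A list of 53 other skeletal muscle genes was examined beside the members. Of these, 43 had their highest CPM in KO replicate 3, beside 14.9% of all tested genes, though only 33 of the 53 were tested. With more than 3 counts there, 15 exceeded 5 times every other library, with no minimum level set for the other libraries. Ttn, titin, the elastic spring of the sarcomere, stood at 102 CPM in KO replicate 3 and at 0.484 to 2.06 CPM in the others. Ckmt2, mitochondrial creatine kinase of muscle, had 215 counts there and 0 in the other 5 libraries, at least 55.1-fold higher against the level of 3 counts in a library. The most abundant genes of the list behaved differently: Cryab, Des, Hspb7, Jph2, Myom1 and Gys1 in KO replicate 3 stood at 0.768 to 1.32 times the highest other library. Of 33 tested, 31 had a higher value in KO and 1 passed (edgeR), beside 0.0123% of all tested genes. It was Myom1, a protein of the sarcomere's M band, at 1.58 on the log2 scale (SE 0.16, adjusted p = 0.0394, edgeR). Without KO replicate 3 Myom1 stood at 1.62 (adjusted p = 0.0647, edgeR). The list's median log2 fold change was 0.99, and 0.35 without KO replicate 3, beside 0.006 and 0.007 for all tested genes.

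Markers of muscle stem cells and new fibres were scarce. Of 16 such genes, 4 had no count in any library: Myh8, Chrng, Pax7 and Mymx. Some of the rest were not particular to KO replicate 3. Cdh15 was seen in every library, highest in WT replicate 2 at 0.424 CPM, with 0.419 CPM in KO replicate 3. It was lowest in KO replicate 2, at 0.0511 CPM. Pax3 (4 counts) and Myh3 (2 counts) were seen in KO replicate 2 alone, and Mymk (1 count) in WT replicate 1 alone. Chrnd had 1 count each in KO replicate 2 and WT replicate 3. Myf6, a transcription factor of mature fibres, had 16 counts in KO replicate 3 and 0 in the other 5 libraries, while Myod1 had 3, Myf5 2 and Myog 1 count there. Chrnb1, a subunit of the acetylcholine receptor, stood at 8.19 CPM in KO replicate 3 and at 4.02 to 6.59 CPM elsewhere. Chrna1, another subunit, stood at 0.745 CPM against 0.121 to 0.434 CPM, and Musk, a kinase of the nerve-muscle junction, at 0.233 against 0.182 to 0.460 CPM.

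Heart muscle shares several slow members. The 13 cardiomyocyte genes summed to 26.6 CPM in KO replicate 3 and 11.1 to 20.3 CPM in the other libraries, and 3 of the 13 were highest there. Tnni3, cardiac troponin I, stood at 3.21 CPM in KO replicate 3 and at 4.08 to 8.53 CPM elsewhere. Ryr2, the release channel of heart muscle, stood at 4.24 CPM there, at 6.01 and 4.09 CPM in KO replicates 1 and 2 and at 0.575 to 1.82 CPM in WT. Nkx2-5, a transcription factor of heart muscle, had no count in any library, and Myh6, Myl7 and Nppb had 0 in KO replicate 3 and at most 6 elsewhere. Actc1, cardiac actin that skeletal fibres can also express, stood at 13.9 CPM there and at 0.229 to 1.38 CPM elsewhere.

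Markers of other cell types and tissues are given beside the members. White adipocyte genes, all 10 tested and none at 0, summed to 1699 to 2592 CPM in KO and 421 to 1717 CPM in WT, and KO replicate 3 had 1809 CPM. Their most abundant genes in KO replicate 3 and the range elsewhere were Cfd at 801 and 76.2 to 831 CPM, Fabp4 at 473 and 129 to 996 CPM, and Pnpla2 at 125 and 74.4 to 179 CPM. Brown adipocyte genes, 7 of 9 tested, were highest in KO replicate 2 at 89.7 CPM, with 46.6 CPM in KO replicate 3. Of these, Prdm16 was highest in KO replicate 3, at 21.1 against 8.68 to 12.4 CPM, while Cox8b and Cidea were highest in KO replicate 2, at 22.4 and 27.4 CPM. Schwann cell and nerve genes were highest in WT replicate 3 at 204 CPM, with 76.7 CPM in KO replicate 3 and Mbp at 49.4 CPM there. Endothelial genes summed to 706 CPM in KO replicate 3 and 511 to 750 CPM elsewhere, with Cdh5 at 166 and Tie1 at 107 CPM in KO replicate 3. Adrenal cortex genes summed to 5.91 CPM there and 4.9 to 6.99 CPM elsewhere, mostly Star at 5.54 CPM, with Cyp11a1 and Nr5a1 at 0.186 CPM each. Kidney tubule genes summed to 258 CPM and 201 to 390 CPM, mostly Aqp1, which endothelium also expresses, at 252 CPM, with Aqp2 at 5.26 and Slc12a1 at 0.698 CPM. The smooth muscle sum in KO replicate 3, 2282 CPM, lay between those of the other KO libraries, with Acta2 at 1471 CPM and Mylk at 149 CPM there. The part of these tissues in the member values was not tested.

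**Figure D4:**
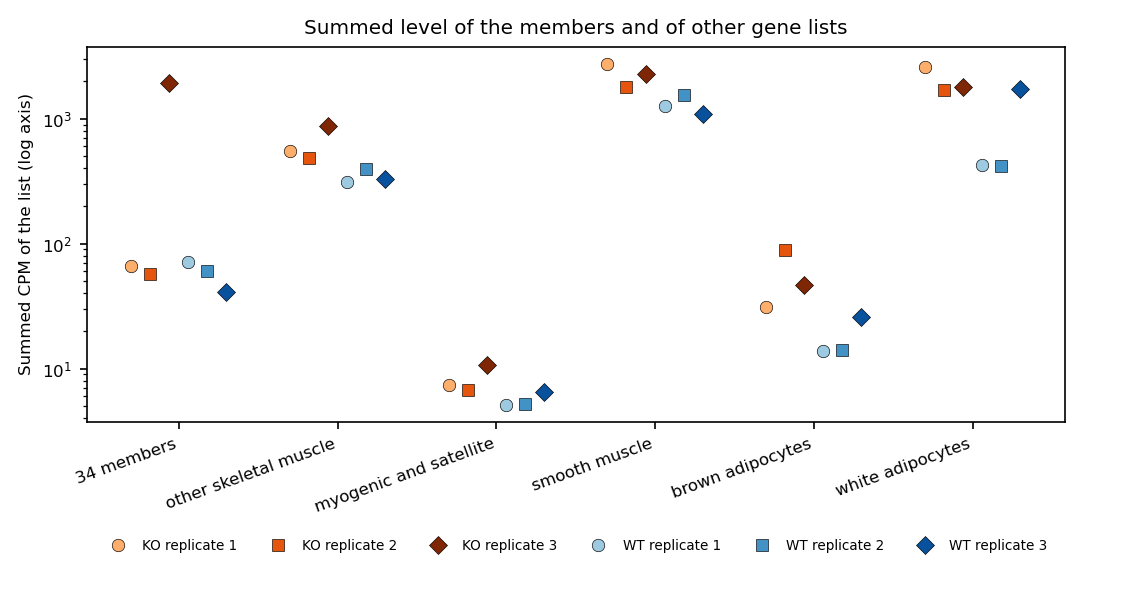
Summed CPM, on a log axis, of the 34 members and of 5 other gene lists in each library. For the members KO replicate 3 lies at 1918 CPM and the others at 41 to 71.4 CPM, while for smooth muscle and adipocyte genes KO replicate 3 lies among the other KO libraries.

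Over all genes with a mean of at least 1 CPM, 36 of 14923 exceeded 5 times every other library in KO replicate 3. Of these, 18 were members, out of 24 members at that mean, and 8 came from the list of other skeletal muscle genes. In the other libraries 1 to 5 genes did so, with no member among them. The mean included KO replicate 3, so genes near 0 elsewhere could reach it through that library alone. Myh1, for example, stood at 41.1 CPM there and at most at 0.172 CPM elsewhere. For such genes the filter nearly fixed the outcome, so the 18 of 24 is a description only. The 10 non-members of highest ratio in KO replicate 3 were Xirp2, Ckmt2, Ttn, Myot, Ampd1, Myom2, Hspa1a, Hspa1b, Smyd1 and Actc1. The inducible heat shock genes Hspa1a and Hspa1b stood there at 305 and 647 CPM, 17.7 and 17.4 times the next library. These copies are nearly identical, so their counts are uncertain.

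Shared sequence limits some single values. Of all 50-base windows of Myh4 transcripts, 18.9% also occurred in another gene, and for Myh1 and Myh2 it was 30.5 and 24.6%. Reads of these neighbouring heavy chain genes can be dropped or split. For Acta1 the share was 2.02%, and for Mylpf, Tnnt3, Tnni2, Pvalb, Ldb3 and Eno3 it was 0. Exons on the opposite strand overlapped 31.9% of Mb, 21.9% of Atp2a1, 20% of Cacna1s and 15.5% of Ckm.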

How the data were processed

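RNA of abdominal aorta, purified on poly-T beads, was sequenced, per the labels' protocols. The authors deposited raw counts per gene for 54532 genes in 6 libraries. The submitters' processing notes list HISAT2 2.0.5, featureCounts 1.5.0-p3 and GRCm38. Neither strandedness, nor the rule for multi-mapping reads, nor the annotation release is stated there. GENCODE M21 on GRCm38 gave positions, exon lengths and exon overlaps for 54495 genes.

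The software was R 4.3.3, edgeR 4.0.16, limma 3.58.1 and DESeq2 1.42.0. Genes kept by filterByExpr (16237) were scaled by TMM. They were tested with glmQLFit and glmQLFTest of edgeR, and p-values were adjusted over all of them (Benjamini-Hochberg) with a threshold of 0.05. The test was tried first on simulated data in which all KO libraries shared each change. That setting does not cover genes high in a single library, as the members were. The standard error was the log2 fold change divided by the square root of F. CPM used TMM-scaled library sizes, and CPM per kilobase divided by the union of a gene's exons. Log2 CPM used a prior count of 2. A count of 0 was taken to allow 3 counts. No pair of libraries agreed within sampling noise (chi-square per degree of freedom 22.5 to 68).

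All members were named, with the 3 most abundant genes of each other list (6 of the other skeletal muscle genes) and the 10 genes and 5 genes nearest in pattern. Some genes under this rule are not reported here. Members and lists were chosen with earlier results of these data known. Alternatives changed scaling, filter, test, replicate block and libraries. Leaving out KO replicate 3 in DESeq2 or without a filter, and leaving out KO replicate 3 with WT replicate 1, were chosen after seeing the data. Figures used matplotlib 3.10.9.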

Additional observations from a re-analysis of the deposited data

How the results depend on the processing

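Of 16237 genes, 2 were called in the test reported. The count was 2 under DESeq2 size factors, upper quartile factors, library size alone and with members left out of the scaling. It was 644 with no filter, 0 with at least 10 counts in 1 library, 451 by DESeq2, 0 by limma-voom with and without quality weights, 1 with robust estimation, and 0 to 155 with libraries left out in turn, where 155 was without WT replicate 3. Without KO replicate 3 it was 837 with no filter and 418 by DESeq2. Members called were 0, but 23 with no filter, 1 by DESeq2 (Ldb3), 4 without KO replicate 3 and with no filter, and 1 by DESeq2 without KO replicate 3 (Ldb3). They were 0 with each library left out. The cause of these differences was not tested.

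The members' median log2 fold change was 3.19, and 0.09 to 4.02 with libraries left out in turn, the lowest without KO replicate 3. With all libraries it was 1.64 by limma-voom and 1.87 with quality weights, where limma-voom gave Acta1 1.95 and Mylpf 1.73. Without KO replicate 3 it was -0.12 with no filter, 0.09 by DESeq2, and 0.03 with WT replicate 1 also left out. Values that turned negative without KO replicate 3, by edgeR, edgeR with no filter, DESeq2, and edgeR with WT replicate 1 also left out, were Mylpf (-0.70, -0.71, -0.71, -0.70), Acta1 (-1.46, -1.47, -1.49, -0.62), Tnnt3 (-0.71, -0.71, -0.71, -0.28), Tnni2 (-0.46, -0.46, -0.46, -0.43), Actn3 (-0.80, -0.80, -0.81, -0.52), Atp2a1 (-0.71, -0.72, -0.72, -0.65), Cox6a2 (-0.45, -0.47, -0.46, -0.70) and Eno3 (-0.28, -0.29, -0.28, -0.16). With libraries left out in turn the highest values were 5.27, 6.91, 5.05, 4.23, 4.95, 4.47, 1.15 and 1.73 in that order. Tnnc1 ranged from -0.06, without WT replicate 3, to 0.74, and was -0.01 without KO replicate 3 and WT replicate 1.

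With the replicate number as a block, 0 genes and 0 members were called and the median was 1.5. Same-numbered KO and WT libraries correlated in their deviations at -0.10, -0.06 and -0.12, which gave no sign that the numbers pair the libraries. With 3 libraries in each group, such correlations cannot show whether they were paired. The depth allowed 0.14 to 0.182 CPM where a count was 0.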

Other observations

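Over the 6 libraries, the 5 non-member genes whose log2 CPM followed the mean of the 19 tested members most closely were Phlda1 (r = 0.995), Fxr1 (0.982), Ttn (0.982), Zfand2a (0.981) and Slc35e2 (0.980). The library KO replicate 3 sets these values, since it stands apart from the other 5, and no p is given. Phlda1 stood at 16.1 CPM there and at 5.75 to 6.54 CPM in the others. Fxr1, an RNA-binding protein gene with muscle isoforms, stood at 127 CPM against 72.1 to 85 CPM. Zfand2a, an arsenite and heat inducible gene, stood at 80.1 CPM against 32.2 to 38.3 CPM.

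Further genes over 5 times every other library in KO replicate 3 were the heat shock gene Hsph1, at 593 against 42.5 to 101 CPM, the muscle gene Apobec2, at 4.47 against 0 to 0.726 CPM, and Gapdh, at 70.2 against 7.54 to 13.2 CPM. The antibody genes Iglc2, at 25.4 against 1.09 to 4.03 CPM, Iglv2, at 20.4 against 0.0543 to 2.76 CPM, and Ighv1-26, at 14.4 against 0.115 to 1.99 CPM, did so too. These genes were chosen after their values were seen.

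Mylk4, a kinase gene of the list of other skeletal muscle genes, had 411, 222 and 751 counts in the KO libraries against 43, 95 and 34 in the WT ones, with KO replicate 3 highest. Xirp1 of the same list had 153, 139 and 276 counts in KO and 36, 71 and 61 in WT. Neither was called with all libraries (adjusted p = 0.102 for Mylk4 and 0.135 for Xirp1, edgeR's quasi-likelihood test). Both were chosen after their values were seen.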
